A study of Homo sapiens with 6 samples.

Results

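The nuclear genes of mitochondrial complex I were followed in PA-1 cells (a line from a human ovarian teratocarcinoma) after transfection of a receptor-interacting protein kinase or exposure to Wnt3a. Members were the rows of the expression table whose symbol begins with NDUFA, NDUFB, NDUFC, NDUFS, NDUFV or NDUFAF. This rule took 46 of 20494 genes. It gave 37 subunit genes, 6 assembly factors (NDUFAF1 to NDUFAF6) and 3 other rows, which are NDUFA4, NDUFA4L2 and the antisense RNA NDUFB2-AS1. The 6 libraries held 1 sample each. Control cells took 8 µg of the empty pCDNA3.1 vector for 48 h (Vector), and 4 groups took 8 µg of RIPK1, RIPK2, RIPK3 or RIPK4 plasmid for the same time. The Wnt3a group was exposed to 200 ng of the ligand for 16 h, and the labels do not say whether it also took a plasmid. With Wnt3a, the ligand, the exposure time and a possible lack of plasmid therefore cannot be told apart. Without replicates there is no SD and no p-value, and every difference describes a pair of libraries.

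Complex I, NADH:ubiquinone oxidoreductase, is the largest enzyme of the respiratory chain and the main entry point for electrons from NADH. Its N module oxidises NADH, its Q module passes the electrons to ubiquinone, and its membrane arm pumps protons. The catalytic core has 14 subunits, 7 encoded in the nucleus (such as NDUFV1, NDUFV2, NDUFS1 and NDUFS7) and 7 in mitochondrial DNA, and the remaining subunits are called accessory. Assembly factors join the modules and do not remain in the finished enzyme. The mitochondrially encoded ND genes were not analysed here. NDUFAF7 stands in the table under its older symbol C2orf56 and so falls outside the rule, and it is described with other assembly factors.

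Expression was given as RPKM, reads scaled to the length of the gene and the total of the library, as the authors deposited it. Library totals recovered from these values ran from 17.2 M reads (Vector) to 19.5 M (RIPK1). Differences from Vector were taken on the log2(RPKM + 1) scale, which understates the change of low genes. Genes with a mean of at least 1 RPKM over the 6 libraries were kept, 11881 in all. Among them were all 37 subunits and all 6 NDUFAF genes, and 45 of the 46 members. Ratios below are of RPKM itself. The range in brackets is an exact binomial 95% interval from recovered reads, which covers counting error only and compares libraries, not conditions. Each kinase was highest in its own library, RIPK1 by the least (16.6 RPKM against 9.35 to 13.4 elsewhere). Of 9 markers of pluripotent embryonal cells, 7 stood at 1 RPKM or more in every library, NANOG was below that and TDGF1 was at 0. Their sum came to 618 RPKM in Vector, 498 with Wnt3a, 666 with RIPK1, 403 with RIPK2, 441 with RIPK3 and 571 with RIPK4. Among them SOX2, a pluripotency factor, stood at 149 RPKM in Vector and 133 with RIPK1, and at 48.1 with Wnt3a, 63.2 with RIPK2, 68.5 with RIPK3 and 78.1 with RIPK4. Vector and RIPK1 were its highest libraries, and its part in the results on complex I was not tested. LIN28A alone held 339 of the 618 RPKM in Vector. On the scale of RPKM + 1, 4 of the 7 markers were at least 20% lower with Wnt3a than in Vector. The numbers were 1 with RIPK1, 3 with RIPK2, 2 with RIPK3 and 2 with RIPK4. Of all kept genes, 21.5%, 6.76%, 22%, 14.5% and 13.6% were lower by this measure. At least 25% higher were SALL4 with Wnt3a and RIPK4 and POU5F1 with RIPK3, against 24.9%, 21.3% and 17.8% of kept genes. Summed markers of haematopoietic cells came to 3.17 to 6.94 RPKM, and of trophoblast and extraembryonic endoderm to 5.43 to 7.15 RPKM, with CGA and KRT7 at 0. Fibroblast markers summed to 72.7 to 124 RPKM with DCN at 0. Of this sum THY1 alone held 64.9 to 118 RPKM, and LUM and COL3A1 stood at 0.11 RPKM or less. Endothelial markers summed to 40.9 to 54.4 RPKM, of which PECAM1 held 21.6 to 32.3 RPKM and VWF 0.13 RPKM or less. In bulk RNA, fewer cells of a type and less RNA per cell cannot be told apart.

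Promoters are printed for 4 subunits chosen by the differences described below. NDUFA5 and NDUFV2 stood lower than in Vector in all 5 other libraries, and NDUFS7 and NDUFV1 stood higher. NDUFB3 had a larger difference than NDUFV2, and NDUFA13 than NDUFV1, and their promoters are not printed. Each run is the 250 bases upstream of the RefSeq transcription start (GRCh38.p14), 5′ to 3′ on the gene's strand, with an NRF1 motif in capitals where there is one. RefSeq gives NDUFA5 3 starts. The printed window is the one whose downstream bases were found in a GENCODE 29 transcript of the gene, and the other NDUFA5 windows hold none of the motifs searched in the bases before the start. NRF1 is a transcription factor known for binding promoters of respiratory chain genes.
NDUFA5 (chr7:123557819-123558068, minus strand): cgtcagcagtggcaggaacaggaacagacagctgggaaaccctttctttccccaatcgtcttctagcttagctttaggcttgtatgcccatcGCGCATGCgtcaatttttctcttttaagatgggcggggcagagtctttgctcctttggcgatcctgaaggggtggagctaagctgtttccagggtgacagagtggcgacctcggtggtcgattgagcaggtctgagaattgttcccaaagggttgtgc
NDUFV2 (chr18:9102449-9102698, plus strand): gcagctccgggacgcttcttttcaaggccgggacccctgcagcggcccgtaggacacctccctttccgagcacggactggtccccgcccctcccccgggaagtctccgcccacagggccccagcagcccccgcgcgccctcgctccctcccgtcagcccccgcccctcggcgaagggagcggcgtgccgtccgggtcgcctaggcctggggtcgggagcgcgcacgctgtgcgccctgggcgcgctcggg
NDUFS7 (chr19:1383657-1383906, plus strand): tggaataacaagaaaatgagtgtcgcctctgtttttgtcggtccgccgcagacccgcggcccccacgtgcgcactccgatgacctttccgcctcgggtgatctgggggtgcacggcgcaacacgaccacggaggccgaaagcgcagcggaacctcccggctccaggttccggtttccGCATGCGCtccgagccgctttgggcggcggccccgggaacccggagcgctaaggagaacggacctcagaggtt
NDUFV1 (chr11:67606686-67606935, plus strand): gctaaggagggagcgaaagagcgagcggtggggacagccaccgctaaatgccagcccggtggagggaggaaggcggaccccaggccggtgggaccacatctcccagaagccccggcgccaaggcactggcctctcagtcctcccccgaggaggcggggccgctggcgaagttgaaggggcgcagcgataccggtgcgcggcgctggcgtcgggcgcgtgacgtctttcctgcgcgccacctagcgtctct
The NRF1 motif begins at position -158 in NDUFA5 and at -73 in NDUFS7, counted from the transcription start. The windows of NDUFV1 and NDUFV2 hold none of the motifs searched. These genes were chosen by their differences, and whether a motif goes with the direction of a difference was not tested.

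Of the 43 subunit and NDUFAF genes, 37 matched the RefSeq promoter table, with 47 windows of 250 bases before to 50 after a start. Both strands were searched for letters bound by factors known at promoters of mitochondrial genes. The NRF1 core GCATGCGC was found for 8 of 37 genes (21.6%), which are NDUFA5, NDUFA6, NDUFA8, NDUFAF4, NDUFAF5, NDUFB4, NDUFS6 and NDUFS7. Among kept genes in the same table it was found for 6.63%. By windows of this length the shares were 17.0% for members, 4.88% for kept genes and 3.05% for all windows. A longer NRF1 palindrome, whose letters overlap the core, was found for NDUFA12, NDUFA3 and NDUFA8 (8.11% of genes against 2.31% of kept genes, and 0.945% of all windows). The YY1 motif AAGATGGC was found for 7 genes (18.9% against 6.88% of kept genes, and 2.89% of all windows), among them NDUFS4 and NDUFS7. The ETS motif CCGGAAG was found for 6 genes (16.2% against 23.5% of kept genes, and 10.3% of all windows), among them NDUFS1 and NDUFS3. These are matches of letters in a window. They do not show binding.

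Complex I subunits were detected in every library, and accessory genes held the highest levels. The summed RPKM of the 37 subunits was 2604 in Vector, 2968 with Wnt3a, 2689 with RIPK1, 2502 with RIPK2, 2591 with RIPK3 and 2607 with RIPK4. The sum was thus highest with Wnt3a and lowest with RIPK2. NDUFS5, an accessory subunit on the intermembrane-space side, was the highest subunit in every library, at 348, 528, 395, 353, 353 and 334 RPKM in Vector, Wnt3a, RIPK1, RIPK2, RIPK3 and RIPK4. It stood 1.52-fold higher with Wnt3a than in Vector (1.45 to 1.59), while the other 4 libraries lay at 0.960 to 1.13 of the Vector level. NDUFA1, a small membrane-anchored subunit and the next by mean level, stood at 189, 176, 198, 151, 179 and 187 RPKM in the same order of libraries. NDUFS6, a zinc-binding subunit of the N module, stood at 160, 214, 184, 171, 174 and 148 RPKM, highest with Wnt3a.

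At the low end, levels were lower by more than an order of magnitude. The 3 lowest subunits by mean RPKM were NDUFA5 (7.47), NDUFS7 (11.7) and NDUFA10 (17.7). NDUFA10, an accessory subunit of the membrane arm, was nearly level across libraries at 17.9, 19.6, 18.01, 17.2, 17.7 and 15.8 RPKM. The distance between the highest and the lowest subunit was 40.01-fold in Vector, 47.9-fold with RIPK1 and 108-fold with Wnt3a. The lowest subunit was NDUFS7 in Vector and NDUFA5 with Wnt3a and RIPK1, so these distances do not rest on the same pair of genes. The 6 NDUFAF genes stood far below most subunits, with medians of 8.28 to 9.14 RPKM by library against 51.5 to 60.1 RPKM for the subunits.

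Against Vector, the median subunit lay near the median of all genes, and single genes differed in both directions. The median difference of the 37 subunits was 0.12 on the log2 scale with Wnt3a, where the median of all kept genes was 0.04. With RIPK1 it was 0.01 (all genes 0.01), with RIPK2 -0.05 (-0.01), with RIPK3 -0.01 (0.02) and with RIPK4 0.02 (0.05). Subunits above Vector numbered 24 of 37 with Wnt3a, 19 with RIPK1, 17 with RIPK2, 18 with RIPK3 and 19 with RIPK4. Among all kept genes, 53.3%, 52.2%, 49.1%, 52.2% and 55.6% stood above Vector in these 5 comparisons. The 6 NDUFAF genes lay lower, with medians of -0.28, -0.12, -0.27, -0.20 and -0.27 in the same order, and 4, 4, 5, 4 and 5 of the 6 stood below Vector, where 46.7%, 47.8%, 50.9%, 47.8% and 44.4% of kept genes did. With the trend along transcript GC content over all kept genes removed, the NDUFAF medians were -0.08, -0.15, -0.08, -0.07 and -0.14, and 3 of 6 stood below Vector with Wnt3a. The subunit median with Wnt3a was then 0.05. All 5 comparisons share the Vector library, so a Vector value that is high or low moves all of them together.

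**Figure D1:**
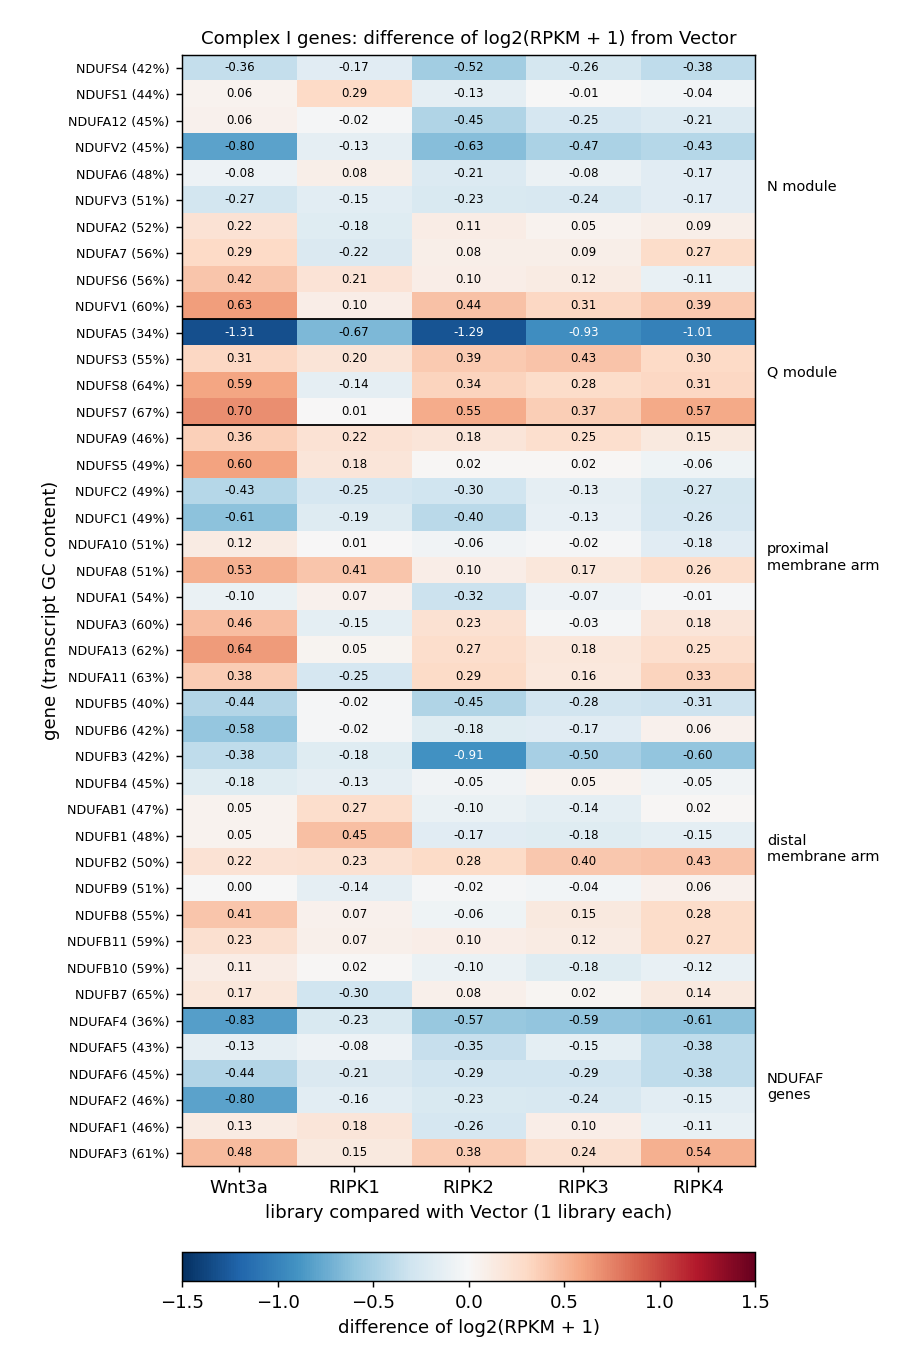
Difference of log2(RPKM + 1) from Vector for subunits and NDUFAF genes (rows, ordered by module and by transcript GC content, given in brackets) in 5 libraries (columns, 1 library each); blue is lower and red is higher than Vector. NDUFA5 is the darkest row, from -0.67 with RIPK1 to -1.31 with Wnt3a, and most blue cells lie towards the top of each block, where GC content is low.

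The Q module held the member with the largest difference and core subunits that mostly went the other way. NDUFA5, an accessory subunit bound to the Q module (gene identifier 4698), stood at 13.7 RPKM in Vector, 4.91 with Wnt3a, 8.23 with RIPK1, 4.996 with RIPK2, 6.68 with RIPK3 and 6.30 with RIPK4. The Vector library was highest and RIPK1 came next. These values rest on 1007, 388, 685, 411, 544 and 492 reads. Compared with Vector, NDUFA5 was 2.79-fold lower with Wnt3a (2.48 to 3.14), 1.66-fold with RIPK1 (1.51 to 1.84), 2.74-fold with RIPK2 (2.44 to 3.08), 2.05-fold with RIPK3 (1.84 to 2.28) and 2.17-fold with RIPK4 (1.95 to 2.43). On the log2(RPKM + 1) scale it passed a 2-fold difference with Wnt3a (-1.31), RIPK2 (-1.29) and RIPK4 (-1.01), and came just short of it with RIPK3 (-0.93).

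NDUFA5 was the only subunit or NDUFAF gene past 2-fold in any comparison. The share of all kept genes at least 2-fold lower was 1.43% with Wnt3a, 0.547% with RIPK1, 0.699% with RIPK2, 0.581% with RIPK3 and 0.387% with RIPK4. At least 2-fold higher were 0.673%, 0.295%, 1.59%, 1.47% and 0.396% of kept genes in the same order, and none of the members. The transcript of NDUFA5 has the lowest GC content of all members, 34.4%. Of the 119 kept genes with a GC content from 34 to 36%, 13 were at least 2-fold lower with Wnt3a (10.9%), 2 with RIPK1 (1.68%), 6 with RIPK2 (5.04%), 3 with RIPK3 (2.52%) and 5 with RIPK4 (4.20%). Their medians were -0.65, -0.06, -0.49, -0.32 and -0.37. After the trend with GC content over all kept genes was removed, the differences of NDUFA5 were -0.67, -0.62, -0.80, -0.60 and -0.64, and none passed 2-fold. RefSeq also names 12 pseudogenes of NDUFA5. How reads shared with them were counted is not given in the sources used here, so the level of NDUFA5 is uncertain. In all, 18 of 37 subunits have a RefSeq pseudogene, among them NDUFS6, which was highest with Wnt3a.

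Core subunits of the Q module carry electrons along iron-sulphur clusters to the ubiquinone site. NDUFS7, which carries the cluster nearest to ubiquinone, stood at 8.71 RPKM in Vector, 14.8 with Wnt3a, 8.77 with RIPK1, 13.2 with RIPK2, 11.6 with RIPK3 and 13.4 with RIPK4. It was 1.70-fold higher than Vector with Wnt3a (1.52 to 1.89), and 1.01-fold with RIPK1 (0.892 to 1.14). Vector and RIPK1 thus stood together below the other 4 libraries. NDUFS8, a subunit with further iron-sulphur clusters, showed 68.5, 104, 62.3, 87.0, 83.3 and 85.0 RPKM in Vector, Wnt3a, RIPK1, RIPK2, RIPK3 and RIPK4. Here too Vector and RIPK1 were the lowest pair, and the ratio to Vector was 1.51 with Wnt3a (1.42 to 1.62).

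NDUFS3, another core subunit of the module, showed 30.5, 38.01, 35.1, 40.4, 41.5 and 37.8 RPKM in the same order. It was lowest in Vector and highest with RIPK3, and its ratio to Vector ran from 1.15 to 1.36 over the 5 libraries. With Wnt3a, RIPK2, RIPK3 and RIPK4, NDUFS3, NDUFS7 and NDUFS8 thus stood above Vector and NDUFA5 below it. The GC content was 55.5% for NDUFS3, 66.8% for NDUFS7 and 63.5% for NDUFS8. With the GC trend removed, NDUFS8 differed from Vector by 0.20 with Wnt3a, -0.02 with RIPK2, 0.02 with RIPK3 and -0.06 with RIPK4. NDUFS7 then differed by 0.31, 0.17, 0.11 and 0.16, and NDUFS3 by 0.06, 0.22, 0.29 and 0.10 in the same order.

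In the N module the core subunits NDUFV1 and NDUFV2, which sit side by side in the enzyme, differed from Vector in opposite directions. NDUFV1, which binds the flavin and takes up electrons from NADH, stood at 36.3 RPKM in Vector, 56.6 with Wnt3a, 39.0 with RIPK1, 49.5 with RIPK2, 45.4 with RIPK3 and 48.0 with RIPK4. NDUFV2, its partner with an iron-sulphur cluster, stood at 73.8, 41.8, 67.2, 47.2, 53.0 and 54.4 RPKM. NDUFV1 was 1.56-fold higher with Wnt3a (1.45 to 1.67) where NDUFV2 was 1.76-fold lower (1.60 to 1.94). In both genes RIPK1 was the library nearest to Vector. NDUFV2 thus stood above NDUFV1 in Vector and RIPK1 by a wide margin, below it with Wnt3a and RIPK2, and somewhat above it with RIPK3 and RIPK4. The GC content was 60.5% for the NDUFV1 transcript and 44.9% for NDUFV2. With the GC trend removed, NDUFV1 differed from Vector by 0.26 with Wnt3a and 0.07 to 0.12 with the 4 kinases, and NDUFV2 by -0.64 with Wnt3a and -0.17 to -0.43 with the kinases. RefSeq names 1 pseudogene of NDUFV2.

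NDUFS1, the largest core subunit and the carrier of several iron-sulphur clusters, varied less. It stood at 38.4 RPKM in Vector, 39.98 with Wnt3a, 47.3 with RIPK1, 35.01 with RIPK2, 38.2 with RIPK3 and 37.5 with RIPK4. RIPK1 was the highest library, 1.23-fold above Vector (1.17 to 1.30). Over the whole N module the median of 10 genes was 0.06 with Wnt3a, -0.08 with RIPK1, -0.17 with RIPK2, -0.05 with RIPK3 and -0.14 with RIPK4. With median-ratio scaling of the libraries the value for Wnt3a became -0.01.

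**Figure D2:**
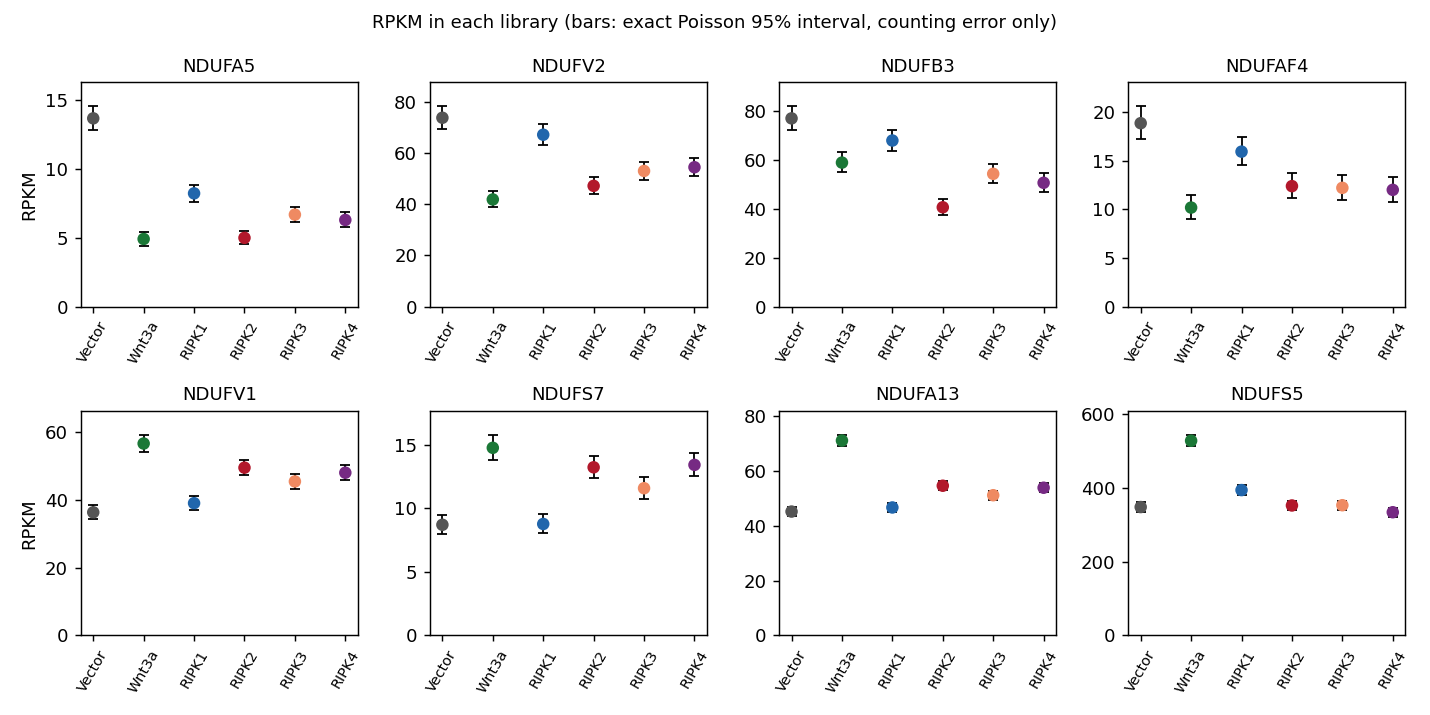
RPKM (y axis, from 0) of 8 complex I genes in each of the 6 libraries (x axis, 1 library each); bars are exact Poisson 95% intervals and cover counting error only. In the upper row (NDUFA5, NDUFV2, NDUFB3 and NDUFAF4) Vector is the highest library, and in the lower row NDUFV1, NDUFS7, NDUFA13 and NDUFS5 are highest with Wnt3a.

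In the membrane arm, the proximal part held genes higher and genes lower than Vector. NDUFA13, also known as GRIM-19, an accessory subunit with a reported role in cell death, stood at 45.1 RPKM in Vector, 71.0 with Wnt3a, 46.6 with RIPK1, 54.5 with RIPK2, 51.1 with RIPK3 and 53.8 with RIPK4. It was 1.57-fold higher with Wnt3a than in Vector (1.51 to 1.64), and 1.03 to 1.21 times Vector elsewhere. NDUFC1, a small accessory membrane subunit, stood at 44.4, 28.6, 38.7, 33.3, 40.5 and 37.0 RPKM, highest in Vector and 1.55-fold lower with Wnt3a (1.37 to 1.76). The proximal arm as a list of 10 genes had a median of 0.37 with Wnt3a and of 0.00 to 0.07 with the kinases. With the GC trend removed the value for Wnt3a was 0.08. In the distal arm, NDUFB3, an accessory subunit, stood at 77.1 RPKM in Vector, 59.0 with Wnt3a, 68.1 with RIPK1, 40.7 with RIPK2, 54.4 with RIPK3 and 50.7 with RIPK4. Its lowest library was RIPK2, 1.90-fold below Vector (1.71 to 2.10), while NDUFA5, NDUFV2 and NDUFC1 were lowest with Wnt3a. RefSeq names 5 pseudogenes of NDUFB3. The 12 genes of the distal arm had medians of 0.05, 0.00, -0.08, -0.09 and 0.04 with Wnt3a, RIPK1, RIPK2, RIPK3 and RIPK4, and the value for Wnt3a was -0.01 with median-ratio scaling.

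Counts of genes at least 25% higher or at least 20% lower than Vector on the scale of RPKM + 1 (the same distance on the log2 scale) gave the extent of the smaller differences. With Wnt3a, 12 of 37 subunits and 1 of 6 NDUFAF genes were higher by this measure, against 24.9% of all kept genes, and 8 subunits and 3 NDUFAF genes were lower, against 21.5%. Among the 12 were NDUFA13, NDUFA8, NDUFS5, NDUFS6, NDUFS7, NDUFS8 and NDUFV1, and the 8 were NDUFA5, NDUFB3, NDUFB5, NDUFB6, NDUFC1, NDUFC2, NDUFS4 and NDUFV2. By the same measure, with RIPK1 only NDUFA8 and NDUFB1 were higher (background 5.17%) and NDUFA5 lower (6.76%). NDUFB1, a distal-arm accessory subunit, stood at 79.8 RPKM with RIPK1 and at 51.1 to 60.1 in the other 5 libraries, so it was highest there.

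With RIPK2, 5 subunits were at least 25% higher (background 21.2%), NDUFS7 and NDUFV1 among them, and 7 were lower (22%). With RIPK3, 3 were higher (17.8%), namely NDUFB2, NDUFS3 and NDUFS7, and 3 were lower (14.5%). With RIPK4, 4 were higher (21.3%), namely NDUFA11, NDUFB2, NDUFS7 and NDUFV1, and 4 were lower (13.6%). NDUFA5, NDUFB3 and NDUFV2 were among the lower genes in all 3 of these comparisons, and NDUFS4, an accessory subunit that stabilises the N module, with RIPK2 and RIPK4. For subunits the shares of 12, 5, 3 and 4 in 37 higher genes were thus above the background with Wnt3a and below it with RIPK2, RIPK3 and RIPK4. With so few genes, and without replicates, the counts describe these libraries only.

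Most, but not all, of the NDUFAF genes stood below Vector. NDUFAF2, NDUFAF4, NDUFAF5 and NDUFAF6 were below it in all 5 comparisons, NDUFAF3 was above it in all 5, and NDUFAF1 lay on both sides. Vector was the highest library for 4 of the 6 (66.7%, against 19.3% of all kept genes). NDUFAF4, which acts in the assembly of the Q module with its partner NDUFAF3, stood at 18.8 RPKM in Vector, 10.2 with Wnt3a, 15.9 with RIPK1, 12.4 with RIPK2, 12.2 with RIPK3 and 11.99 with RIPK4. It was highest in Vector and 1.85-fold lower with Wnt3a (1.60 to 2.15). NDUFAF3 went the other way, at 7.42, 10.7, 8.34, 9.98, 8.96 and 11.2 RPKM, lowest in Vector and 1.51-fold higher with RIPK4 (1.28 to 1.79). The 2 partners thus differed from Vector in opposite directions in all 5 libraries. Their transcripts lie at the ends of the GC range of the NDUFAF genes, 36.3% for NDUFAF4 and 60.9% for NDUFAF3. With the GC trend removed, NDUFAF4 differed by -0.28 and NDUFAF3 by 0.10 with Wnt3a.

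NDUFAF2, which acts late in assembly, stood at 9.33 RPKM in Vector, 4.95 with Wnt3a, 8.25 with RIPK1, 7.80 with RIPK2, 7.75 with RIPK3 and 8.29 with RIPK4. Its Wnt3a value, from 70 reads, was 1.89-fold lower (1.40 to 2.57), and the other 5 libraries lay between 7.75 and 9.33 RPKM. It kept a difference of -0.67 with the GC trend removed. NDUFAF1, an assembly factor of the membrane arm, stood between 8.95 (RIPK2) and 12.5 RPKM (RIPK1). NDUFAF5, which modifies NDUFS7 during assembly, stood between 5.20 (RIPK4) and 7.09 RPKM (Vector). NDUFAF6, the lowest of the 6, stood between 2.43 (Wnt3a) and 3.64 RPKM (Vector). At least 20% lower were NDUFAF2, NDUFAF4 and NDUFAF6 with Wnt3a, NDUFAF4 and NDUFAF5 with RIPK2, NDUFAF4 with RIPK3, and NDUFAF4, NDUFAF5 and NDUFAF6 with RIPK4, against 21.5%, 22%, 14.5% and 13.6% of all kept genes. NDUFAF3 was at least 25% higher with Wnt3a, RIPK2 and RIPK4, against 24.9%, 21.2% and 21.3%. RefSeq names pseudogenes of NDUFAF1, NDUFAF2 and NDUFAF4.

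Other assembly factors of complex I, named outside the NDUFAF series, were taken as a list of 12 genes. Their medians were 0.09, 0.01, -0.06, 0.00 and 0.07 with Wnt3a, RIPK1, RIPK2, RIPK3 and RIPK4, close to those of all genes. None passed 2-fold. TMEM126B, a factor of the membrane arm, had the lowest difference among them with Wnt3a (-0.82), at 13.2 RPKM against 24.1 in Vector. ECSIT, its partner in assembly, had the highest (0.52), at 17.7 against 12.1. The GC content was 37.8% for TMEM126B and 61.7% for ECSIT. Kept genes at 36 to 38% and 60 to 62% GC had medians of -0.49 and 0.40 with Wnt3a. C2orf56 (NDUFAF7), a mitochondrial methyltransferase, stood at 11.6 RPKM in Vector, 8.46 with Wnt3a, 8.65 with RIPK1, 9.65 with RIPK2, 9.27 with RIPK3 and 8.15 with RIPK4. Its Vector value was the highest.

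The 3 remaining rows are not complex I genes in the strict sense. NDUFA4, now known as a subunit of complex IV, stood at 152 RPKM in Vector, 137 with Wnt3a, 141 with RIPK1, 110 with RIPK2, 135 with RIPK3 and 164 with RIPK4. RIPK2 was the lowest library, 0.727 times Vector (0.682 to 0.775). NDUFA4L2, a relative of NDUFA4 known to be induced in hypoxia, stood at 0.127 to 0.284 RPKM, on 5 to 11 reads in each library. It was the only member under the expression filter, and at these read numbers no difference between libraries was detectable. NDUFB2-AS1, an antisense RNA to NDUFB2, stood at 6.75, 7.99, 4.82, 8.30, 8.30 and 10.8 RPKM in Vector, Wnt3a, RIPK1, RIPK2, RIPK3 and RIPK4. Whether reads were counted by strand is not given in the sources used here, so its reads cannot be told apart from those of NDUFB2, which stood at 77.6 to 105 RPKM.

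The differences of complex I genes followed the GC content of their transcripts in 4 of the 5 comparisons, as those of all genes did. Over the 37 subunits, Spearman's rho between transcript GC content and the difference from Vector was 0.737 with Wnt3a, 0.743 with RIPK2, 0.657 with RIPK3 and 0.715 with RIPK4. With RIPK1 it was -0.020. Over 11808 kept genes the values were 0.697, 0.671, 0.552 and 0.679, and -0.084 with RIPK1. The points of each correlation share their 2 libraries, and genes are not independent, so these are descriptions. The 12 subunits of highest GC content (55.5 to 66.8%), among them NDUFS7, NDUFS8, NDUFA13 and NDUFV1, stood above Vector in 12 of 12 cases with Wnt3a, 7 with RIPK1, 11 with RIPK2, and 10 with RIPK3 and RIPK4. The 12 of lowest GC content (34.4 to 47.8%) had NDUFA5, NDUFV2, NDUFB3 and NDUFS4 among them. They stood below Vector in 8 cases with Wnt3a and RIPK1, 11 with RIPK2, 10 with RIPK3 and 9 with RIPK4. Kept genes at 60 to 62% GC had medians of 0.40, -0.01, 0.32, 0.24 and 0.34 with Wnt3a, RIPK1, RIPK2, RIPK3 and RIPK4. Those at 40 to 42% had -0.35, 0.00, -0.32, -0.21 and -0.24. Shares of kept genes of like GC content above or below Vector are not given here. The counts of subunits therefore cannot set complex I apart from other genes of like GC content.

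The medians of the high-GC subunits were 0.40, 0.01, 0.25, 0.14 and 0.27 with Wnt3a, RIPK1, RIPK2, RIPK3 and RIPK4, and those of the low-GC subunits were -0.27, -0.02, -0.33, -0.21 and -0.19. With the trend over all genes removed they were 0.08, 0.05, -0.07, -0.07 and -0.04 for the former and -0.05, -0.04, -0.10, -0.08 and -0.08 for the latter. The GC content of a gene moves with many of its other properties, and its part in these differences was not tested.

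**Figure D3:**
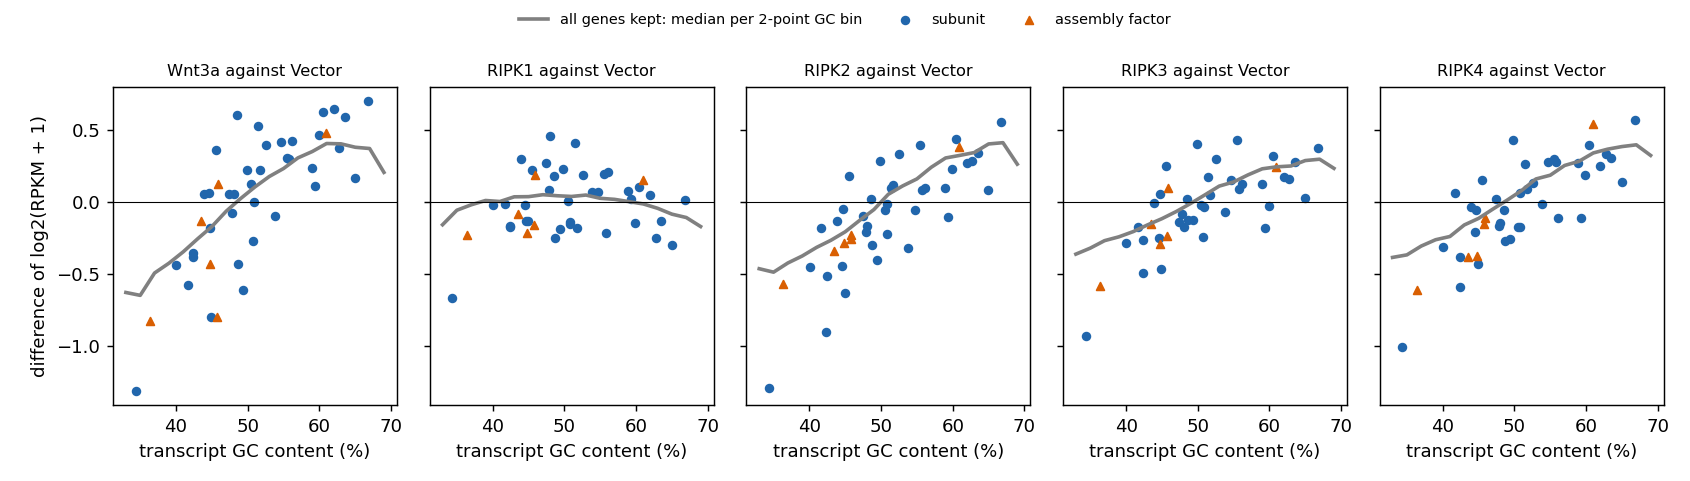
Difference of log2(RPKM + 1) from Vector (y axis) against transcript GC content in percent (x axis) for subunits (blue circles) and NDUFAF genes (orange triangles), 1 panel for each comparison; the grey line is the median of all kept genes in bins of 2 percentage points of GC content. The line and the complex I genes slope upwards with Wnt3a, RIPK2, RIPK3 and RIPK4 and not with RIPK1, and NDUFA5, the leftmost circle, lies below the line in all 5 panels.

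Pairs of libraries that leave out Vector were compared after the values above had been seen. The same lean along GC content appeared against RIPK1, with rho over the subunits of 0.834 for Wnt3a, 0.795 for RIPK2, 0.709 for RIPK3 and 0.736 for RIPK4 (0.778, 0.673, 0.591 and 0.748 over all kept genes). Against RIPK1, Wnt3a had 11 subunits at least 25% higher (background 24.3%) and 6 at least 20% lower (21.6%), from NDUFV2 (-0.67) to NDUFS8 (0.73). The same counts against RIPK1 were 6 higher and 10 lower for RIPK2 (21.7% and 23.7%), 3 and 3 for RIPK3 (17.9% and 15%), and 6 and 4 for RIPK4 (20.4% and 12.2%). Set directly beside Wnt3a, RIPK4 had 12 subunits above and 25 below, with a median of -0.09, where 6525 kept genes stood above and 5354 below, with a median of 0.02. By the same measure 3 were higher (background 8.68%) and 3 lower (4.41%), and the extremes were NDUFB6 (0.64), an accessory subunit of the distal arm, and NDUFS5 (-0.66). RIPK3 set against RIPK2 gave the fewest differences of this size among these pairs, with a median of 0.03. It had 2 subunits at least 25% higher (2.1%), none at least 20% lower (3.52%) and NDUFB3 as the largest difference (0.41). In the pairs RIPK4 against Wnt3a and RIPK3 against RIPK2 the lean along GC content ran the other way. There rho over the subunits was -0.384 and -0.702 (-0.325 and -0.519 over all kept genes). The GC trend was not removed in the pairs without Vector.

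Each subunit was also described by its highest and its lowest library. Wnt3a was the highest library for 18 of 37 subunits (48.6%), where it was highest for 23.3% of all kept genes. Among the 18 were NDUFS7, NDUFS8, NDUFA13 and NDUFV1, which also belong to the 12 subunits of highest GC content. The GC trend was not removed for the counts by library, and shares for genes of like GC content were not taken. Vector was highest for 8 (21.6%, against 19.3% of kept genes), RIPK1 for 5 (13.5% against 20.9%), RIPK4 for 4 (10.8% against 10.96%), RIPK3 for 2 (5.41% against 11.9%) and RIPK2 for none (13.6% of kept genes). The counts for Vector and RIPK4 were near the share of all genes. The 8 subunits highest in Vector were NDUFA5, NDUFB3, NDUFB5, NDUFC1, NDUFC2, NDUFS4, NDUFV2 and NDUFV3. Vector was also the lowest library for 9 subunits, among them NDUFV1, NDUFS3 and NDUFS7 (24.3%, against 21.7% of all kept genes), which is near the background.

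The nuclear genes of the other respiratory complexes were taken as lists. These lists also hold assembly factors, such as SDHAF1, BCS1L, COX10 and ATPAF1, while the NDUFAF genes were kept apart from complex I. The medians are therefore not of like sets, and medians of the other subunits alone were not taken. With Wnt3a the median of the complex I subunits was 0.12. The lists of complex II (0.24, 6 genes) and complex III (0.23, 11 genes) lay above it. Those of complex V (0.11, 18 genes) and complex IV (-0.04, 23 genes) lay below it. With RIPK2 the medians were -0.05 for complex I, 0.12 for complex II, 0.09 for complex III, -0.13 for complex IV and -0.12 for complex V. The spread within each complex was wide. SDHD, a membrane anchor of complex II, was 2.26-fold lower with Wnt3a than in Vector, while SDHA, its flavoprotein, was 1.74-fold higher. Past 2-fold on the log2(RPKM + 1) scale were SDHD, COX16 and COX20 with Wnt3a and COX17 with RIPK2, all lower, the last 3 being assembly factors of complex IV. In complex III the extremes with Wnt3a were CYC1, cytochrome c1 (0.65), and UQCRFS1, the Rieske iron-sulphur protein (-0.58). In complex V they were ATP5D (0.46) and ATP5J (-0.98), subunits of the central and the peripheral stalk.

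**Figure D4:**
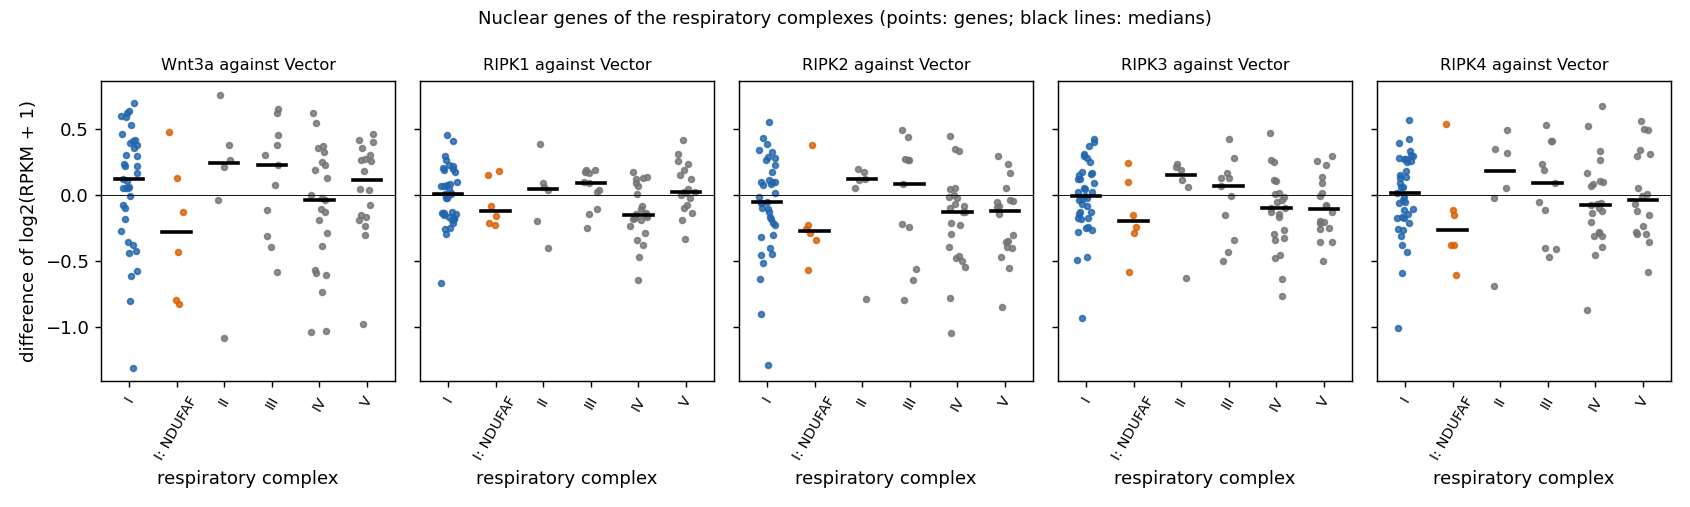
Difference of log2(RPKM + 1) from Vector (y axis) for nuclear genes of respiratory complexes I to V and for the NDUFAF genes (x axis), 1 point per gene, 1 panel per comparison; black lines are medians. With Wnt3a the medians run from -0.28 for the NDUFAF genes to 0.24 for complex II. Complex I overlaps every other complex in all panels. The points of complexes II to V include assembly factors.

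Genes that regulate nuclear and mitochondrial genes of the respiratory chain were described as a further list, of which 10 of 12 were kept. Their medians were -0.24, -0.09, -0.13, -0.08 and -0.07 with Wnt3a, RIPK1, RIPK2, RIPK3 and RIPK4, and none passed 2-fold on the log2(RPKM + 1) scale. TFB2M, a mitochondrial transcription factor, had the lowest value with Wnt3a, at 5.09 RPKM against 10.8 in Vector (-0.95). TFAM, which packages mitochondrial DNA, stood at 58.1 RPKM in Vector, 30.7 with Wnt3a, 57.9 with RIPK1, 37.8 with RIPK2, 43.6 with RIPK3 and 39.5 with RIPK4. As with NDUFA5 and NDUFV2, Vector and RIPK1 were its highest libraries. ESRRA, a nuclear receptor that drives genes of oxidative metabolism, was lowest in Vector at 8.31 RPKM and highest with RIPK2 at 14.0. The GC content was 38.4% for TFAM, 41.9% for TFB2M and 64.0% for ESRRA. Kept genes at 38 to 40%, 40 to 42% and 64 to 66% GC had medians of -0.43, -0.35 and 0.38 with Wnt3a. A link between these regulators and the complex I genes was not tested. NRF1, whose motif is shown above, stood at 8.15 to 9.57 RPKM, and the co-activators PPARGC1A and PPARGC1B were below the filter.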

How the data were processed

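RNA of 6 libraries of PA-1 cells, 1 per group, was sequenced. Groups came from the transfection label, and each table column carries the title of its sample. The values, as the authors deposited them, are RPKM for 20494 genes, printed to 5 significant digits. GSNAP, DESeq and hg19 appear in the submitters' processing notes. Their versions and roles, the annotation, the strand and the counting rule were not given in the sources. Whole reads were recovered from the ratios of low RPKM values between libraries, which gave library totals of 17.2 to 19.5 M reads and a whole number of reads for 45 of 46 members. For NDUFA6 they were approximated from its GENCODE 29 length. At these totals 97.2% of short low genes gave a whole length, against 12.0% at random totals, and 91.1% of kept genes were solved.

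Differences from Vector were taken as log2(RPKM + 1), a pseudocount of 1, for genes with a mean of at least 1 RPKM. Genes were counted at 2-fold and at a smaller distance (25% higher, 20% lower) without a test. Shares of all kept genes at a fold distance, and above or below Vector, leave out the kinases of the libraries compared. Shares by highest or lowest library, and genes above or below in pairs without Vector, include every kept gene. Transcript GC content was the median over coding transcripts of GENCODE 29 (GRCh38), used for length and GC only, with 11808 kept genes matched and a lowess trend of span 0.3. Promoters came from RefSeq (GRCh38.p14). Recovery and intervals were tested on simulated data. Alternatives were a pseudocount of 0.1, no filter, median-ratio scaling, removal of the GC trend and leaving out members with a RefSeq pseudogene.

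Members, lists and tests were chosen with earlier results of these data known. Named genes were members past 2-fold, the 10 members with the largest difference, the 7 nuclear core subunits, the NDUFAF genes, NDUFA4, NDUFA4L2, the 3 highest and 3 lowest subunits, and the extremes of each other list. A gene named by this rule is not reported here. NDUFB1, NDUFB2, NDUFB6, NDUFS4, C2orf56 and TFAM were singled out after their values were seen, as were pairs of libraries without Vector and the subunits listed by count. Protein sequences were not analysed here. Python 3.11.15, numpy 2.4.6, pandas 2.3.3, scipy 1.17.1, statsmodels 0.14.6 and matplotlib 3.10.9 were used.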

Additional observations from a re-analysis of the deposited data

How the results depend on the processing

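No paired analysis was possible because each group has 1 library. For the same reason no library could be left out of a group. Depth limits most the 5 to 11 reads of NDUFA4L2. Counts below are of the 43 subunit and NDUFAF genes. Shares of all kept genes under these other settings are not given here. Whether a count below lies above or below its background therefore cannot be read from it. With the GC trend removed, the members past 2-fold went from 1 to 0 with Wnt3a, RIPK2 and RIPK4. Genes at least 25% higher went from 13 to 3 with Wnt3a, from 6 to 1 with RIPK2 and from 5 to 1 with RIPK4, and those at least 20% lower from 11 to 6 with Wnt3a and from 7 to 4 with RIPK4. With median-ratio scaling, RIPK1 had 2 lower genes instead of 1 and RIPK4 had 3 higher genes instead of 5. With a pseudocount of 0.1, NDUFA5 also passed 2-fold with RIPK3, giving 1 gene. Without the 21 members that have a RefSeq pseudogene, NDUFA5 among them, 22 genes remained. The 2-fold counts were then 0 with Wnt3a, RIPK2 and RIPK4, and by the smaller distance Wnt3a had 7 higher and 5 lower genes, RIPK1 0 and 0, and the lower genes numbered 3 with RIPK2, 0 with RIPK3 and 3 with RIPK4. The subunit median with RIPK2 was then 0.0790 over 19 genes instead of -0.05, so its sign depends on these genes. Beyond the smaller number of genes in that setting, the cause was not tested. All subunit and NDUFAF genes pass the filter, so leaving it out could not change their 25 counts and medians.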
